A study of Rattus norvegicus with 49 samples.

Results

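The genes described here are Mbp, Pmp22, Prx, Mag, Mal, Sox10 and Egr2, a small set of Schwann cell and myelin genes, measured in rat thyroid with and without exposure to 131I. They were chosen by name, and a probe was taken as theirs when its RefSeq accession belonged to one of these symbols. This gave 9 probes of 7 genes, of 30367 probes and 15154 gene symbols on the array, and 8 of the 9 probes were tested among 25284. The study exposed male Sprague Dawley rats to 131I, which the thyroid takes up and concentrates, and measured total RNA of the flash-frozen thyroid of 1 rat per one-colour Agilent array. It asked which transcripts are regulated in the exposed gland at different activities, ages and times.

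Young groups were injected at 5 weeks of age. The young rats given 50 kBq were killed at 4, 7 or 10 months of age, which was 3, 6 or 9 months after injection, and gave 4 arrays at each age. The young rats given 0.5 kBq (4 arrays), 5 kBq (3 arrays) or 500 kBq (4 arrays) were killed at 10 months of age. The adult groups were injected with 50 kBq at 17 weeks of age and killed at 7, 10 or 13 months of age, 3, 6 or 9 months after injection, with 4 arrays each. Untreated controls were 4, 7, 10 and 13 months old, with 4, 3, 4 and 3 arrays. No other treatment or allele was named, and all 13 groups were male rats of one strain. Each sample was a whole piece of thyroid, so the nerve fibres, vessels, fat and any neighbouring muscle that came with the gland contributed to the RNA.

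Schwann cells wrap the axons of peripheral nerves, and those around the thicker axons wind their membrane into myelin. Sox10 keeps these cells in the Schwann lineage and, together with Egr2, a zinc finger factor also called Krox20, switches on the genes of the myelin sheath. In the thyroid such cells lie in the autonomic and sensory nerve bundles that run along vessels and between follicles, so myelin transcripts are minor components of the gland's RNA.

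Before the results, 3 arrays stood apart and 2 pairs of arrays were nearly identical. The array labelled young, 50 kBq, 4 months, replicate 2 was dim: its 75th percentile signal was 61.0, against 783 to 4172 on the other 48 arrays, and 42.9% of its spots were well above background against 69.0% to 82.4%. The array labelled young, 50 kBq, 4 months, replicate 3 and the array labelled control, 7 months, replicate 2 were low in thyroid transcripts. Thyroglobulin (Tg) was at 0.14 and -0.69 on these arrays, on a log2 scale relative to each array's 75th percentile, and between 6.41 and 7.91 on the 46 arrays that remained when all 3 were set aside. The mean level of 10 follicular thyrocyte genes was at -4.06 and -4.68 there, and between 0.26 and 2.60 on the 46 arrays. These 3 arrays are called doubted here, and the group comparisons and relations between rats that they move are given with and without them. Replicates 1 and 2 of the 13-month controls, and replicates 1 and 2 of the adult 50 kBq rats of 10 months, differed by over 1.5 on the log2 scale at only 3 of 11212 and 1 of 11077 probes, in that order, where the median pair of a group differed at 428. Each of these pairs was averaged and counted as 1 sample, which left 47 samples, with 2 in the 13-month controls and 3 in the adult group of 10 months, and 44 samples without the doubted arrays.

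All levels below are log2 of the processed signal minus the log2 of the array's 75th percentile, so that 0 is the signal at that percentile and a difference of 1 is a doubling. Levels of different probes are not set against each other, because each probe has its own brightness. Markers of Schwann cells were present in the tissue. S100b, a calcium-binding protein of these cells and of fat cells, was well above background on all 49 arrays, and Cldn19, a claudin of myelinating Schwann cells, on 48. Gfap, a marker of glia that do not form myelin, was well above background on 3 arrays, and Olig2, which marks oligodendrocytes of the central nervous system, on 4.

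The promoters of Prx, Mag and Pmp22 are shown because these genes varied together with Sox10 or with each other from rat to rat, as described further on. Each line gives the 250 bases before the transcription start in the RefSeq annotation of the rat genome GRCr8, 5′ to 3′ on the strand of the gene. Capitals mark matches to a Sox motif, written ACAAAG or ACAATG, or to an Egr motif, written GNGTGGGNG, searched on both strands. No match of these motifs overlapped another in the 3 sequences.

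Prx, chr1:91914171-91914420, plus strand: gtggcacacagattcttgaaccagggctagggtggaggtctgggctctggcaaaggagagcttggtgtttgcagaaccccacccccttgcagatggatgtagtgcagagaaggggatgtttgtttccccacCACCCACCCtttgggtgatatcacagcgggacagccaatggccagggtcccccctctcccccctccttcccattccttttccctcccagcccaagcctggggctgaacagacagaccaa
Mag, chr1:95291045-95291294, minus strand: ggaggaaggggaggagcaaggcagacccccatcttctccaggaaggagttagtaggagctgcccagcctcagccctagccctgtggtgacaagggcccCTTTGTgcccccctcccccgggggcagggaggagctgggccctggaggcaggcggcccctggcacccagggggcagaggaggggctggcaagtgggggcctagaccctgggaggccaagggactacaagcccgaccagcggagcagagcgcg
Pmp22, chr10:48294682-48294931, plus strand: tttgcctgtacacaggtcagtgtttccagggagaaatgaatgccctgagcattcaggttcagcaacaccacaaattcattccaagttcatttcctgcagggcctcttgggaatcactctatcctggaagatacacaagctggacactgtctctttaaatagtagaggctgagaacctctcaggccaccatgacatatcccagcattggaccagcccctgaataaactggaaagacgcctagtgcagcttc

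The Prx promoter held the Egr motif on the reverse strand, starting 119 bases before the start, and the Mag promoter held ACAAAG on the reverse strand, starting 152 bases before the start. The Pmp22 promoter held neither. In windows that also took in 50 bases after the start, ACAAAG or ACAATG was found in 2 of the 6 member genes with a promoter in the table (Mbp and Mag), and in 29.1% of all 33469 promoters. The Egr motif was found in 1 of the 6 (Prx), and in 12.9% of all promoters. Sox10 was the member without a promoter in the table. A match is a run of letters and not a measured binding site. The windows of Mag and Pmp22 differed in base composition, with 67.7% and 49.7% G and C against a median of 51.7% over all promoters.

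Sox10 (chromosome 7, 112605721 to 112615097, GRCr8, as are all gene positions here) is the lineage factor of Schwann cells, and its probe gave a signal well above background on each of the 49 arrays. Its mean level in the controls was -3.94 ± 0.638 at 4 months (SD, n = 4), -3.94 ± 0.109 at 7 months without the doubted array (n = 2), -4.42 ± 0.168 at 10 months (n = 4) and -4.40 ± 0.528 at 13 months (n = 2). Among the exposed groups the lowest mean was -4.92 ± 0.880 in the young rats given 0.5 kBq (n = 4), whose rats stood at -4.01, -5.05, -6.08 and -4.56. One rat of that group was thus the lowest of all, and the group overlapped with the controls of its age, which lay between -4.62 and -4.22. The dim array gave Sox10 a level of 0.04, where no other array was above -3.36. On that array the lowest signal that counted as well above background was itself at -2.01, against -7.89 to -5.89 on the other arrays.

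Egr2 (chromosome 20, 21050149 to 21055201) is the transcription factor that starts myelin gene expression, and it is also an immediate early gene of other cells such as lymphocytes. Its probe was well above background on 41 of 49 arrays, the fewest among the 8 tested probes. Without the doubted arrays the highest group mean was -4.72 ± 1.24 in the 7-month controls (SD, n = 2) and the lowest was -6.59 ± 0.977 in the 13-month controls (n = 2). The high mean rested on 1 rat, since the 7-month controls stood at -5.60 and -3.84, and the latter was the highest Egr2 level of the series.

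Mbp (chromosome 18, 78130652 to 78241174) encodes myelin basic protein, which binds the inner faces of the membrane layers together, and it had a pair of probes on different RefSeq transcripts. Probe A_64_P017163 was well above background on 49 arrays and ranged from -2.43 to 1.28. Probe A_64_P017160 was well above background on 48 arrays and ranged from -4.27 to -1.65 without the doubted arrays. The probes did not vary together within groups, with a Pearson r of 0.03 over 47 samples and 0.04 over 44. For comparison, the probe pair of S100b had an r of 0.48 over 47 samples and 0.79 over 44. The Mbp probes are therefore given separately throughout, and which of them follows Mbp of Schwann cells was not tested.

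Pmp22 (chromosome 10, 48294932 to 48324941) encodes a tetraspan protein of compact myelin and is also transcribed in fibroblasts and other cells that are not glia. It was well above background on every array, between 0.21 and 2.27. Over 47 samples it varied least within groups of the 8 probes, with an SD of 0.37 against a median of 0.54 over all tested probes. Over 44 samples these values were 0.38 and 0.39. Its highest group mean was in the 4-month controls, 1.76 ± 0.331 (SD, n = 4), and its lowest in the 13-month controls, 0.49 ± 0.396 (n = 2).

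Prx (chromosome 1, 91912669 to 91934754) encodes periaxin, a scaffold protein of the Schwann cell membrane at the outer and inner borders of the sheath. Without the doubted arrays it ranged from -5.88 to -4.30. Its highest group mean was in the 7-month controls, -4.39 ± 0.0573 (SD, n = 2), and its lowest in the adult rats given 50 kBq of 13 months, -5.30 ± 0.396 (n = 4). Mag (chromosome 1, 95275728 to 95291133) encodes the adhesion protein that holds the innermost myelin layer to the axon. Its tested probe, A_64_P019613, was well above background on 49 arrays and ranged from -3.68 to -1.44 without the doubted arrays. A further Mag probe, A_42_P646991, was well above background on 0 of 49 arrays, so it gave no level and was not tested.

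Mal (chromosome 3, 135317664 to 135341423) encodes a proteolipid of lipid rafts in myelin, and it is also made by polarised epithelial cells, where it serves transport to the apical membrane. It was well above background on 48 arrays and ranged from -4.59 to -1.19 without the doubted arrays. Over these 44 samples it had the largest share of its variance between groups of the 8 probes. That share was 46.8%, against a median of 35.8% over all tested probes, and over 47 samples it was 19.1% against 32.1%. The doubted 7-month control was at -7.31 and not well above background, and it alone moved the mean of that group from -1.79 ± 0.269 (SD, n = 2) to -3.63 ± 3.19 (n = 3). In the order of the 13 group means, neighbouring groups lay within the larger of their SDs for nearly every step. Without the doubted arrays, 1 of the 12 steps was wider for Prx and 0 of 12 for each of the other 7 probes.

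**Figure D1:**
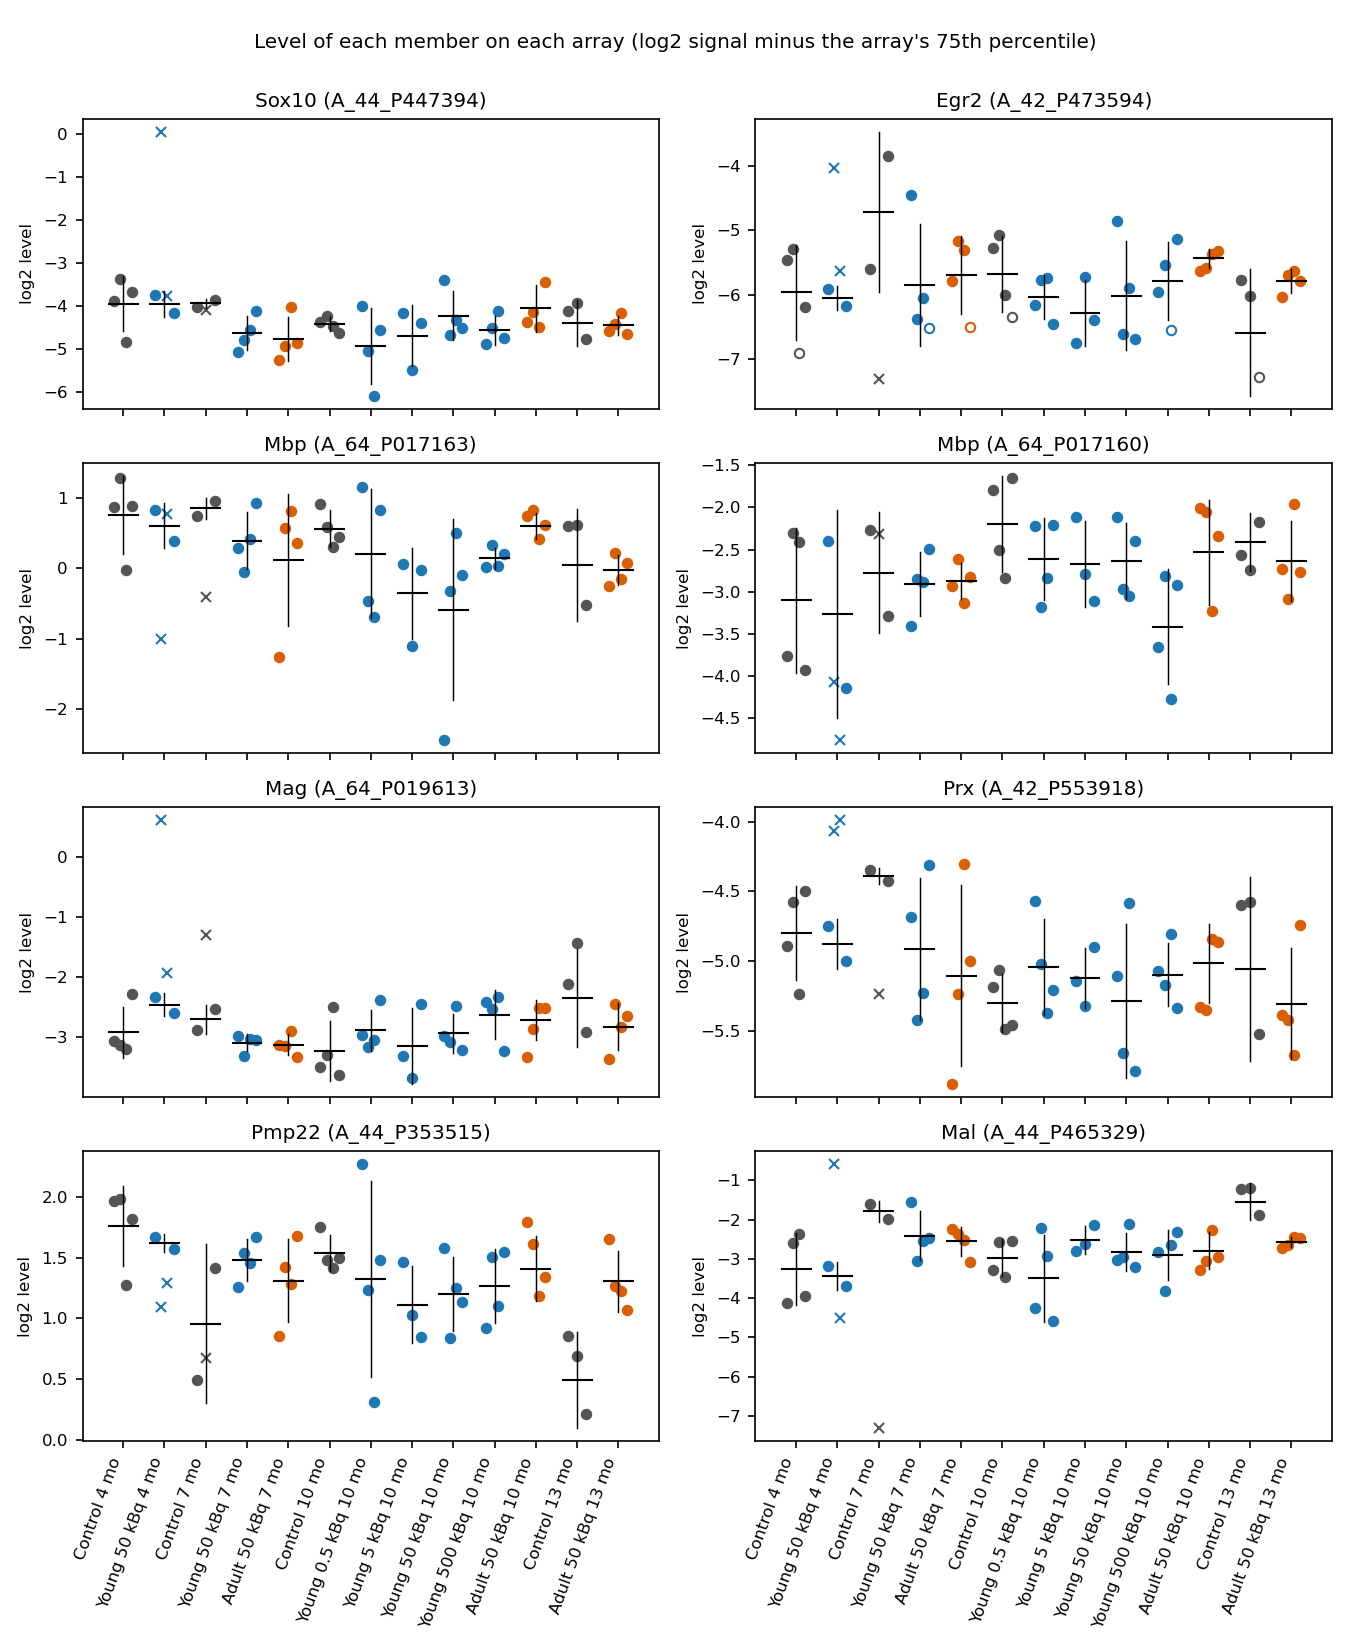
Level of the 8 tested probes (log2 signal relative to the array's 75th percentile, vertical axis) on each array of the 13 groups. Filled points were well above background, open points were not, crosses are the 3 doubted arrays, and bars give the mean ± SD without them; the groups overlap for most probes, and the crosses of Sox10, Mag and Mal lie farthest from their groups.

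In the plot of levels by group most groups overlap, with the 13-month controls low for Pmp22 and high for Mal. A single test over all 13 groups, limma's moderated F test, called 0 of the 8 probes at an adjusted p under 0.01. An unadjusted p under 0.05 was found for 2 of the 8 probes with 47 samples and 1 with 44, against 18.9% and 24.4% of all tested probes. The adjusted p ran from 0.231 for Mag to 0.940 for Egr2 over 47 samples, and from 0.148 for Mal to 0.599 over 44 samples. Over all tested probes, 0.0396% were called by the F test with 47 samples and 0.429% with 44. In bulk tissue, the number of Schwann cells and the RNA per Schwann cell cannot be told apart. Nor can either be told apart from the part of other cells that transcribe the same gene. Both limits hold for every difference below.

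A total of 15 contrasts were computed, 12 between a pair of groups and 3 between exposure effects or exposed groups, and each probe was tested in all of them with limma. A transcript was called regulated at an adjusted p under 0.01, by the Benjamini-Hochberg method over all tested probes, and a fold change above 1.5 in either direction. With 47 samples, 0 of the 120 tests of the members were called, 9 had an unadjusted p under 0.05, and the lowest adjusted p was 0.0300. With 44 samples 1 was called, 13 had an unadjusted p under 0.05, and the lowest adjusted p was 0.00637. The contrasts share control groups, so their values are not independent of each other.

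**Figure D2:**
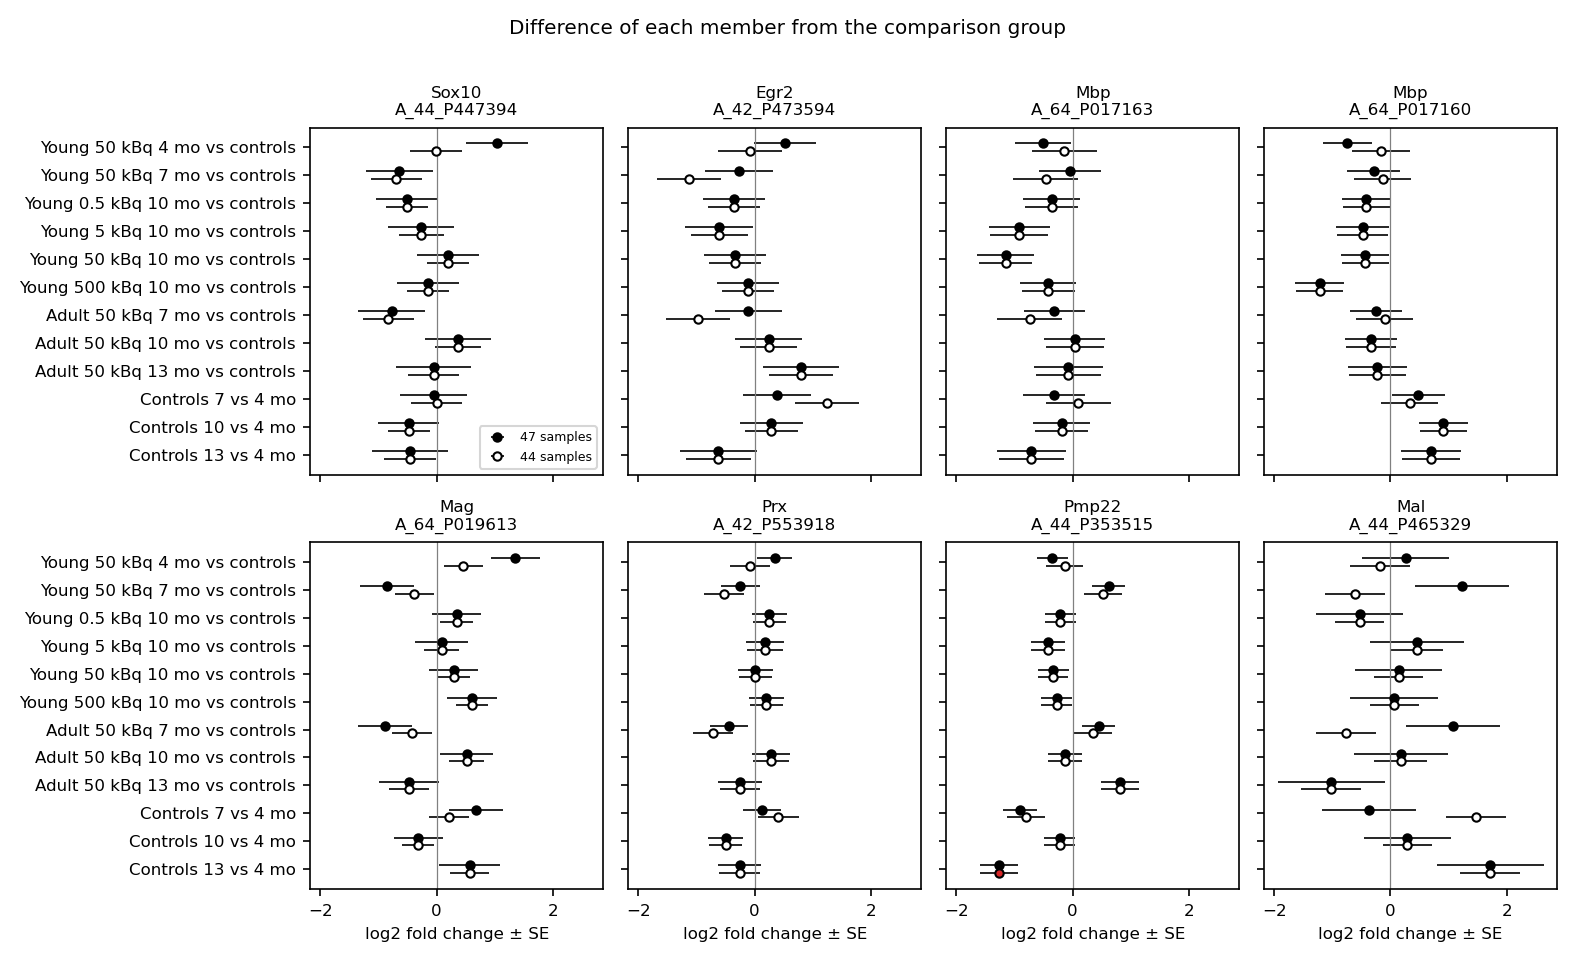
Difference in log2 level with its standard error for the 8 probes in each contrast, with 47 samples (filled) and without the 3 doubted arrays (open). Red marks the only called difference, Pmp22 in 13-month against 4-month controls without the doubted arrays, and the widest gaps between filled and open points are for Mag and Sox10 at 4 months and for Mal at 7 months.

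The strongest difference among the members was one of age in unexposed rats. Pmp22 was at 1.97, 1.99, 1.28 and 1.82 in the 4-month controls and at 0.86, 0.69 and 0.21 in the 13-month controls, of which the first 2 arrays are near-identical. All 13-month controls were below all 4-month controls. The difference was -1.27 ± 0.326 (SE) on the log2 scale, with an adjusted p of 0.0300 by limma over 47 samples, and 0.00637 without the doubted arrays, where it was called. Leaving out 1 sample at a time, the difference lay between -1.55 and -0.99. Without replicate 3 of the 13-month controls it was -0.99 with an adjusted p of 0.207, and without the averaged pair it was -1.55 with an adjusted p of 0.0776. Over all settings tried the adjusted p ranged from 0.00593 to 0.207. Within the first scan date, with replicates 1 and 3 of the 13-month controls and 2 of the 4-month controls, the difference was -1.44. Within the second, with replicate 2 of the 13-month controls and 2 of the 4-month controls, it was -0.86. Replicate 2 is the near-identical partner of replicate 1, so these values are not independent of each other.

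In the same comparison Mal was higher in the older rats. The 4-month controls were at -4.12, -2.59, -2.37 and -3.95, and the 13-month controls at -1.23, -1.19 and -1.88. These groups did not overlap either. The difference was 1.71 ± 0.919, with an adjusted p of 0.234 by limma over 47 samples and 0.0153 over 44, so it was not called in either. Within the first and second scan dates it was 1.80 and 1.97. Pmp22 and Mal were thus the 2 genes of 7 whose 13-month and 4-month controls did not overlap, where 38.3% of all tested probes did not overlap. An unadjusted p under 0.05 was found for 1 of the 8 probes with 47 samples and 2 with 44, against 25.8% and 41.3% of all probes. The percentages called over all probes were 0.0158% with 47 samples and 10.2% with 44. The median difference of the 8 probes was -0.36, against 0.17 over all tested probes.

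Markers of other cell types moved in this comparison too. All 9 tested skeletal muscle genes were lower at 13 months, with a median difference of -2.23, all 6 fibroblast genes were lower, with a median of -1.41, and all 10 follicular thyrocyte genes were higher, with a median of 1.29. The mean level of the fibroblast list was 0.47 to 1.51 on the 13-month control arrays and 2.26 to 2.66 on the 4-month arrays. That of the thyrocyte list was 2.27 to 2.60 against 0.26 to 2.25, and that of the muscle list 3.02 to 3.99 against 5.62 to 6.79. The part of these tissues in the Pmp22 and Mal differences was not tested.

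Neither Pmp22 nor Mal moved steadily with age, since the 10-month controls lay nearer to the 4-month controls than the 7-month controls did. The 10-month controls differed from the 4-month controls by -0.22 for Pmp22 and by 0.29 for Mal. At 7 months of age the means of the controls that were not doubted lay between those of 4 and 13 months for both genes. Pmp22 was at 0.49 and 1.42, and at 0.67 on the doubted array, and its difference from the 4-month controls was -0.90 ± 0.288 with an adjusted p of 0.426 by limma, and -0.81 with 0.300 without the doubted array. Mal was at -1.60 and -1.98 in the 7-month controls that were not doubted, above all 4-month controls, with a difference of 1.47 ± 0.517 and an adjusted p of 0.254. With the doubted array, where Mal was at -7.31, the difference was -0.37 with an adjusted p of 1.00. Without the doubted array, Prx and Mal were the 2 genes whose 7-month and 4-month controls did not overlap, against 14.1% of all tested probes. With it, 0 members did not overlap, against 6.16%. The share of all probes called was 0.00396% with 47 samples and 0.0278% with 44, and 0 members were called in either by limma, with an unadjusted p under 0.05 for 1 and 3 of the 8 probes, against 7.23% and 13.1% of all probes.

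At 10 months of age 0 members were called against 4-month controls, where 0% of all probes were called with 47 samples and 0.0119% with 44. One probe had an unadjusted p under 0.05, Mbp A_64_P017160, which was higher by 0.91 at 10 months with an adjusted p of 1. Its 10-month controls stood at -1.80, -2.50, -2.84 and -1.65 and its 4-month controls at -3.77, -2.31, -2.42 and -3.92, so the groups overlapped. All 8 probes overlapped at these ages, where 3.11% of all probes did not. Over all probes 3.48% had an unadjusted p under 0.05. The brighter probe of the same gene differed by -0.19.

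The adult rats given 50 kBq and killed at 13 months shared their age with these oldest controls. Pmp22 was at 1.66, 1.27, 1.23 and 1.07 in the exposed rats, above all 3 control arrays. The difference was 0.81 ± 0.326, with an adjusted p of 0.241 by limma over 47 samples and 0.0992 over 44. Mal was at -2.71, -2.64, -2.45 and -2.45 in the exposed rats, below all controls, with a difference of -1.02 ± 0.919 and an adjusted p of 0.655 over 47 samples and 0.195 over 44. Pmp22 and Mal were again the 2 genes of 7 without overlap, where 29.9% of all tested probes did not overlap.

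The controls of this comparison are the same 2 samples that were lowest for Pmp22 and highest for Mal in the comparison with 4-month controls, so the comparisons share those values. Limma called 0 members here, with an unadjusted p under 0.05 for 1 of the 8 probes, against 14.8% of all probes with 47 samples and 27.6% with 44. Over all probes 0% were called with 47 samples and 2.48% with 44. Within the first scan date, with 2 exposed arrays and control replicates 1 and 3, the differences were 0.91 for Pmp22 and -1.03 for Mal. The fibroblast list ranged from 1.02 to 2.18 on the exposed arrays and the thyrocyte list from 1.43 to 2.10, against 0.47 to 1.51 and 2.27 to 2.60 in the controls. The skeletal muscle list ranged from -2.80 to 6.67 on the exposed arrays. Their part in the differences was not tested.

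In the young rats of 10 months, which received 0.5, 5, 50 or 500 kBq, the member with the largest differences was Mbp. On probe A_64_P017163 the controls were at 0.92, 0.59, 0.30 and 0.44. The rats given 5 kBq were at 0.06, -1.10 and -0.02, all below the controls, and the rats given 50 kBq at -2.43, -0.32, 0.50 and -0.10. One rat of the 50 kBq group was the lowest of the series, and that group overlapped with the controls. The rats given 0.5 kBq stood at 1.15, -0.46, -0.70 and 0.83, and those given 500 kBq at 0.01, 0.32, 0.04 and 0.21. Both of these groups overlapped with the controls. The differences from the controls were -0.92 ± 0.525 in the 5 kBq and -1.15 ± 0.486 in the 50 kBq group, and -0.36 and -0.42 in the 0.5 kBq and 500 kBq groups. The adjusted p by limma was 1 at 5 kBq and at 50 kBq.

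Single rats carried much of these Mbp differences. Without replicate 1 at 50 kBq the difference was -0.54, and without replicate 2 at 5 kBq it was -0.55. Mbp on this probe was the only member without overlap at 5 kBq, where 15.4% of all tested probes did not overlap. At 0.5, 50 and 500 kBq 0 members were without overlap, against 1.05%, 3.99% and 2.91% of all probes.

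The other Mbp probe, A_64_P017160, gave a different order of activities. Its controls were at -1.80, -2.50, -2.84 and -1.65, and the rats given 500 kBq at -3.66, -2.82, -4.27 and -2.92. The groups overlapped by 1 rat only, since the 500 kBq rat at -2.82 was just above the lowest control. The difference at 500 kBq was -1.22 ± 0.418, with an unadjusted p of 0.00614 and an adjusted p of 1 by limma, and it lay between -1.43 and -0.93 over the alternatives. Within the third scan date, with 1 exposed and 1 control array, the difference at 500 kBq was 0.03. The other arrays at 500 kBq shared no scan date with the controls. At 0.5, 5 and 50 kBq the difference over all arrays was -0.41, -0.48 and -0.44. Over all arrays both Mbp probes were thus lower in all 4 exposed groups than in the shared controls, by differences of unlike size, and none was called. At 0.5 kBq the directions differed between scan dates. There A_64_P017160 and A_64_P017163 differed by -0.77 and -0.65 within the first (3 exposed and 3 control arrays). Within the third (1 and 1) they differed by 0.64 and 0.53. At 5 and 50 kBq both probes were lower within each of these dates.

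For the remaining members the 4 activities gave no call either. With 47 samples, limma called 0 members at each activity, and the number of probes with an unadjusted p under 0.05 was 0, 0, 1 and 1 in order of activity, where 0.89%, 1.66%, 1.3% and 1.53% of all tested probes had one. The shares of all tested probes that were called were 0%, 0.0119%, 0.0119% and 0% in the same order. The median difference of the 8 probes was -0.36, -0.34, -0.16 and -0.13 in order of activity, against -0.00, -0.02, 0.04 and 0.06 over all tested probes. Without the doubted arrays, which are in none of these groups, the numbers of member probes with an unadjusted p under 0.05 were 0, 0, 1 and 2 in order of activity, against 2.44%, 6.2%, 4.6% and 5.12% of all probes, and the shares of all probes without overlap were 1.06%, 15.4%, 3.99% and 2.92%. In that setting Mag at 500 kBq had an unadjusted p of 0.0357 with a difference of 0.61 and an adjusted p of 0.954.

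At 4 months of age, 3 months after injection of 50 kBq into young rats, Mag and Sox10 gave differences that rested on the doubted arrays. Mag was at -3.06, -3.14, -3.20 and -2.29 in the 4-month controls. In the exposed rats it was at -2.33 and -2.60, and on the doubted arrays at 0.60 (the dim array) and -1.94. The difference was 1.36 ± 0.424, with an adjusted p of 0.0348 by limma over 47 samples, and 0.46 ± 0.339 with an adjusted p of 0.597 over 44. Leaving out the dim array alone gave 0.63 with an adjusted p of 0.257. Leaving out replicate 1 or replicate 4 of the exposed group, which keeps the doubted arrays, gave 1.61 and 1.70, with adjusted p of 0.00802 and 0.00589, and both of these were called.

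Sox10 behaved likewise, with -3.87, -3.36, -4.84 and -3.68 in the 4-month controls, -3.73 and -4.17 in the exposed rats, and 0.04 and -3.76 on the doubted arrays. Its difference was 1.04 ± 0.531 with an adjusted p of 0.150 by limma over 47 samples, and -0.01 ± 0.441 over 44. In this comparison 0 members were called in either setting, 1 and 0 probes had an unadjusted p under 0.05, and 0% of all probes were called. Members without overlap numbered 0 in both settings, against 5.4% and 17.1% of all probes. The median difference over all tested probes was 0.30 with the doubted arrays and 0.02 without them, and 36.9% and 9.79% of all probes had an unadjusted p under 0.05. In Mag the difference was 0.50 within the first scan date and 0.41 within the second, each from 1 exposed and 2 control arrays with the doubted arrays set aside.

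At 7 months of age, 6 months after injection in the young and 3 months after it in the adult rats, both exposed groups were compared with the same controls. Mag was at -2.99, -3.31, -3.03 and -3.05 in the young rats and at -3.13, -3.14, -2.91 and -3.33 in the adult rats. The controls were at -2.88 and -2.53, and at -1.31 on the doubted array, above all 8 exposed rats. The differences were -0.85 in young and -0.89 in adult rats over 47 samples, and -0.38 and -0.42 over 44.

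Sox10 at 7 months was at -5.06, -4.79, -4.56 and -4.12 in the young rats and at -5.25, -4.93, -4.03 and -4.85 in the adult rats. The controls were at -4.01 and -3.86, and at -4.10 on the doubted array. All young rats were below all controls with and without the doubted array, and all adult rats were below them only without it, since 1 adult rat stood at -4.03. Without the doubted array the differences were -0.69 with an adjusted p of 0.598 by limma in young rats and -0.83 with 0.650 in adult rats. Within the second scan date, with 2 adult exposed and 2 control arrays, doubted arrays set aside, the adult differences were -1.15 for Sox10 and -0.43 for Mag. The young rats of 7 months were all scanned on the first date, and the controls on the other dates. Differences of the young rats from these controls thus cannot be told apart from differences of scan date.

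Of the 7 genes, Mag and Sox10 did not overlap in young rats of 7 months in either setting, where 7.82% of all probes did not overlap with 47 samples and 18.5% with 44. In adult rats it was Mag alone with 47 samples, against 7.65% of all probes, and Mag, Mal and Sox10 with 44, against 17.6%. Limma called 0 members in these groups, with an unadjusted p under 0.05 for 1 probe in young and 0 in adult rats over 47 samples, against 6.23% and 4.36% of all probes, and for 1 probe in each over 44, against 10.2% and 7.97%. Over all probes 0% were called in both with 47 samples, and 0.0239% (young) and 0.0318% (adult) with 44. Without the doubted arrays 7 of the 8 probes were lower than in controls in each exposed group, with a median difference of -0.49 in young and -0.72 in adult rats, against -0.09 and -0.11 over all tested probes. With the doubted array among the controls, 6 of the 8 were lower in each, with medians of -0.26 in young and -0.28 in adult rats, against -0.11 in both over all tested probes. Both groups are set against the same controls, of which 2 were not doubted.

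In adult rats of 10 months 0 members were called by limma and 0 had an unadjusted p under 0.05, against 0% and 0.538% of all probes. The differences ran from -0.33 for Mbp A_64_P017160 to 0.52 for Mag, and 0 members were without overlap, against 6.69% of all probes. Young and adult rats given 50 kBq were also compared directly, which needs no controls. At 10 months all 8 probes were lower in young rats, with a median of -0.22 against -0.02 over all tested probes. The largest of these was Mbp A_64_P017163, -1.19 ± 0.525 with an unadjusted p of 0.0293 and an adjusted p of 1. At 7 months 6 probes were higher and 2 lower in young rats, and the differences lay between -0.16 and 0.27. The groups overlapped for all 8 probes at both ages, where 2.07% of all probes did not overlap at 7 months and 2.05% at 10 months.

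The times since injection differ between young and adult rats of one age, so age at injection and time since injection cannot be told apart there. Limma called 0 members in the direct comparisons, with an unadjusted p under 0.05 for 0 probes at 7 months and 1 at 10 months, against 0.728% and 0.447% of all probes, of which 0% were called. The change of the young 50 kBq effect from 4 to 10 months was also called for 0 members, with an unadjusted p under 0.05 for 0 probes, against 0% and 16.4% of all probes with 47 samples, and 0% and 7.26% with 44. For Mag that change was -1.06 with an adjusted p of 0.345 by limma over 47 samples and -0.17 with 0.910 over 44.

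Other genes of the myelin sheath and of Schwann cell identity were followed as lists. Of 14 other myelin genes 12 had a probe and 11 were tested, and of 16 names of Schwann cell and glial identity, in which Gpr126 is an older name of Adgrg6, 13 had a probe and 12 were tested. With 47 samples 0 genes of either list were called in any contrast by limma, and with 44 samples 1 was. This was Ugt8, the enzyme that makes the galactolipids of myelin and is also active in epithelia, which was 2.27 ± 0.515 higher in 13-month than in 4-month controls (adjusted p = 0.00283).

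In that comparison the listed genes differed in both directions. Gal3st1, which adds the sulphate of sulphatide, differed by 1.70 with an adjusted p of 0.0207 by limma over 44 samples. Cnp differed by -0.65, Cldn19 by 0.03 and S100b by -0.13. Of the 11 other myelin genes 5 were higher and 6 lower, with a median of -0.50, and of the 12 identity genes 8 were higher and 4 lower, with a median of 0.60, against 0.17 over all tested probes.

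In the adult rats of 13 months given 50 kBq, Ugt8 differed from the controls by -1.71 (adjusted p = 0.0310 by limma, 44 samples) and Aspa, an enzyme of acetylaspartate breakdown in glia and other cells, by 2.01 ± 0.582 (adjusted p = 0.0259). Neither was called. The lists had medians of -0.27 (4 higher, 7 lower) and -0.24 (3 higher, 9 lower) there, against -0.12 over all tested probes.

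How the members varied together from rat to rat was examined next, on levels from which each group's mean had been removed, so that differences between groups play no part. Each of the 21 pairs of the 7 genes was tested with 100000 two-sided permutations within groups, with Mbp and Mag represented by their brighter probes and p-values adjusted over the 21 pairs. With 47 samples 1 pair passed an adjusted p of 0.05 in both Pearson's r and Spearman's rho, and with 44 samples 3 pairs did. The pairs of the lineage factor Sox10 with Pmp22 and with Prx, and of Prx with Mag, made up the 3.

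Sox10 and Prx were the pair that passed in both settings, but with quantile normalization of the 47 samples their r was -0.40 (adjusted p = 0.427, permutation), and 0.59 when the doubted arrays were also removed. Over 44 samples r was 0.57 (adjusted p = 0.0084, permutation) and rho 0.58 (adjusted p = 0.0157, permutation), and r was 0.51 without the 2 samples farthest from the median. Over 47 samples r was 0.48 and rho 0.55. Among the 20 samples of the first scan date that shared a group with another, r was 0.74, and among the 9 of the second it was 0.84. The third scan date held only 4 such samples, with an r of 0.41. Where values within the scan dates are given below without further naming, they are those of the first and second.

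Pmp22 and Sox10 had an r of 0.65 (adjusted p = 0.0084, permutation) and a rho of 0.55 (adjusted p = 0.0157, permutation) over 44 samples, and 0.49 without the 2 farthest. Within the first and second scan dates r was 0.76 and 0.45. With the doubted arrays r was 0.28 (adjusted p = 0.236, permutation). For Prx and Mag r was 0.45 (adjusted p = 0.0251, permutation) and rho 0.49 (adjusted p = 0.0219, permutation), 0.48 without the 2 farthest, and 0.61 and 0.72 within the scan dates. With the doubted arrays r was 0.32 (adjusted p = 0.17, permutation). Of all 21 pairs 15 had a positive r, with a median of 0.24. Mag and Sox10 had the highest r with the doubted arrays, 0.68 with an adjusted p of 0.069 by permutation (rho 0.47, adjusted p = 0.0444), and 0.49 without the 2 farthest samples.

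The members were then set against the mean level of 15 lists of marker genes, in 120 relations, again within groups. By Pearson's r, 9 relations passed an adjusted permutation p of 0.05 over 44 samples, and 9 over 47 samples. The closest was that of Mal with the follicular thyrocyte genes, with an r of 0.88 and a rho of 0.88 over 44 samples, 0.86 without the 2 farthest, and 0.88 and 0.94 within the first and second scan dates. Its unadjusted p of 1e-05 was the smallest that the permutations can give, and its adjusted p was 0.0012. Over 47 samples r was 0.88 too. Mal was thus the member most closely tied, in these relations, to the main epithelial cell of the gland.

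Pmp22 varied with the fibroblast genes (r = 0.78, rho = 0.72, 0.70 without the 2 farthest, adjusted p = 0.002 by permutation, 0.87 and 0.84 within the scan dates) and with the adipocyte genes (r = 0.64, rho = 0.75, adjusted p = 0.0018 by permutation, 0.60 and 0.84 within the scan dates). Over 47 samples these r were 0.76 and 0.59. Egr2 varied with the immediate early genes (r = 0.65, rho = 0.56, adjusted p = 0.0134 by permutation, 0.66 and 0.80 within the scan dates) and with the T lymphocyte genes (r = 0.56, rho = 0.61, adjusted p = 0.0078 by permutation, 0.64 and 0.74 within the scan dates). Over 47 samples the former r was 0.40, with an adjusted p of 0.398 by permutation, and the latter 0.62, with 0.0008.

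Sox10 varied with the axon and neuron genes (r = 0.46, rho = 0.52, adjusted p = 0.0436 by permutation, 0.40 and 0.51 within the scan dates), also over 47 samples, with an r of 0.56. It further varied with the adipocyte genes (r = 0.59, rho = 0.59, adjusted p = 0.0297 by permutation), but within the second scan date this r was 0.18 against 0.66 in the first, and over 47 samples it was 0.40 (adjusted p = 0.0771, permutation). Mbp A_64_P017163 varied with the other myelin genes without the doubted arrays (r = 0.50, rho = 0.58, adjusted p = 0.0436 by permutation, 0.31 and 0.48 within the scan dates), but over 47 samples this r was 0.17 (adjusted p = 0.627, permutation). Mbp A_64_P017160 varied with the adipocyte genes (r = 0.58, rho = 0.57, adjusted p = 0.0142 by permutation, 0.58 and 0.08 within the scan dates), and over 47 samples this r was 0.56. Within the third scan date, with only 4 samples, r was -0.99 for Sox10 with the axon and neuron genes and 0.81 with the adipocyte genes. There it was -0.23 for Mbp A_64_P017163 with the other myelin genes, and -0.20 for A_64_P017160 with the adipocyte genes. With the doubted arrays, Sox10 varied with the other myelin genes as well, with an r of 0.62 (adjusted p = 0.0366, permutation), against 0.48 (adjusted p = 0.1) without them.

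**Figure D3:**
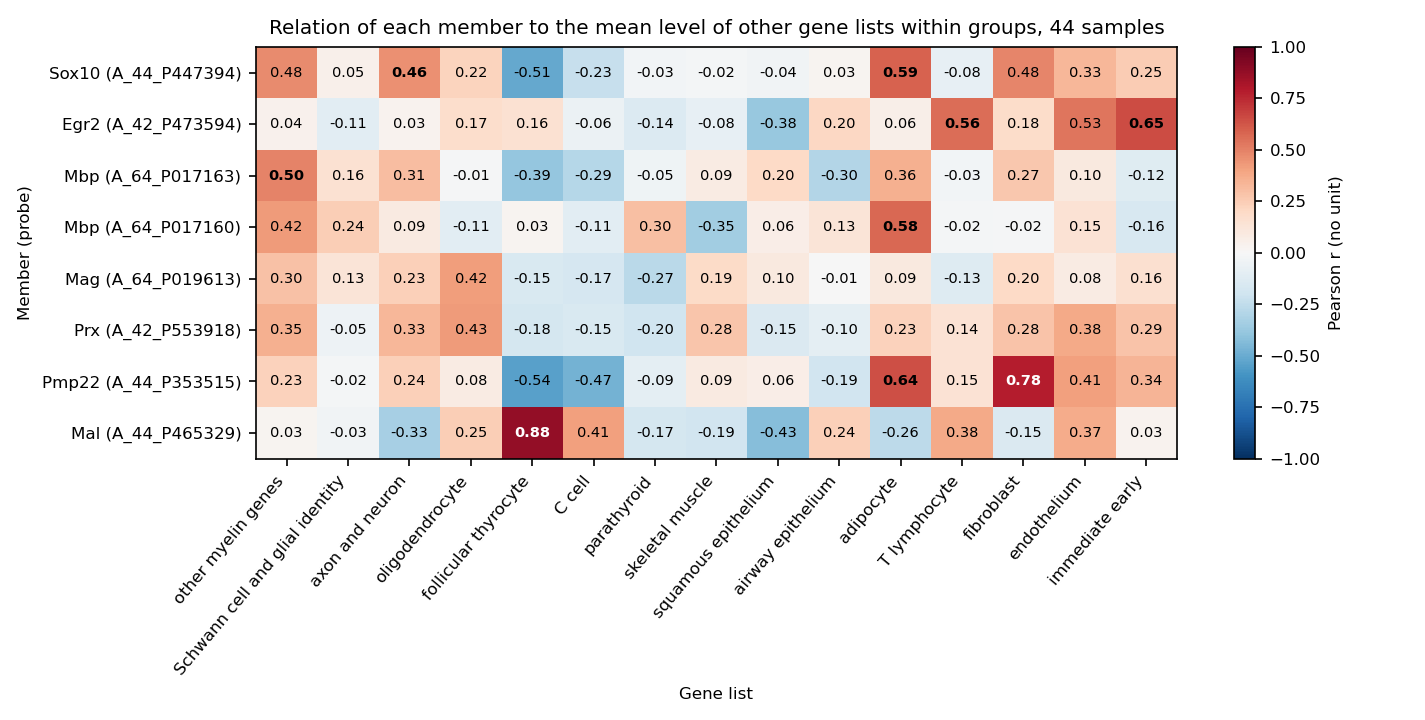
Pearson's r between each of the 8 tested probes and the mean level of each of 15 marker gene lists, over 44 samples after removal of group means; bold numbers have an adjusted permutation p under 0.05. The highest value is that of Mal with the follicular thyrocyte list, 0.88.

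In the heat map of these relations, which leaves out the doubted arrays, Mal, Pmp22 and Egr2 each had their highest r with a list that is not glial, namely the thyrocyte, fibroblast and immediate early genes, and Sox10 had its highest with the adipocyte genes. Mbp A_64_P017163 had its highest with the other myelin genes. Prx and Mag had theirs with the oligodendrocyte genes, at 0.43 and 0.42, which did not pass the adjusted threshold, nor did they with the doubted arrays, at 0.36 and 0.75. In the plot of single samples, Mal and the thyrocyte list spread along a line in controls, young and adult exposed rats, and Prx and Sox10 more loosely so, while the Mbp probes form a round cloud. Relations of this kind were computed across rats and do not show in which cell a transcript lay.

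**Figure D4:**
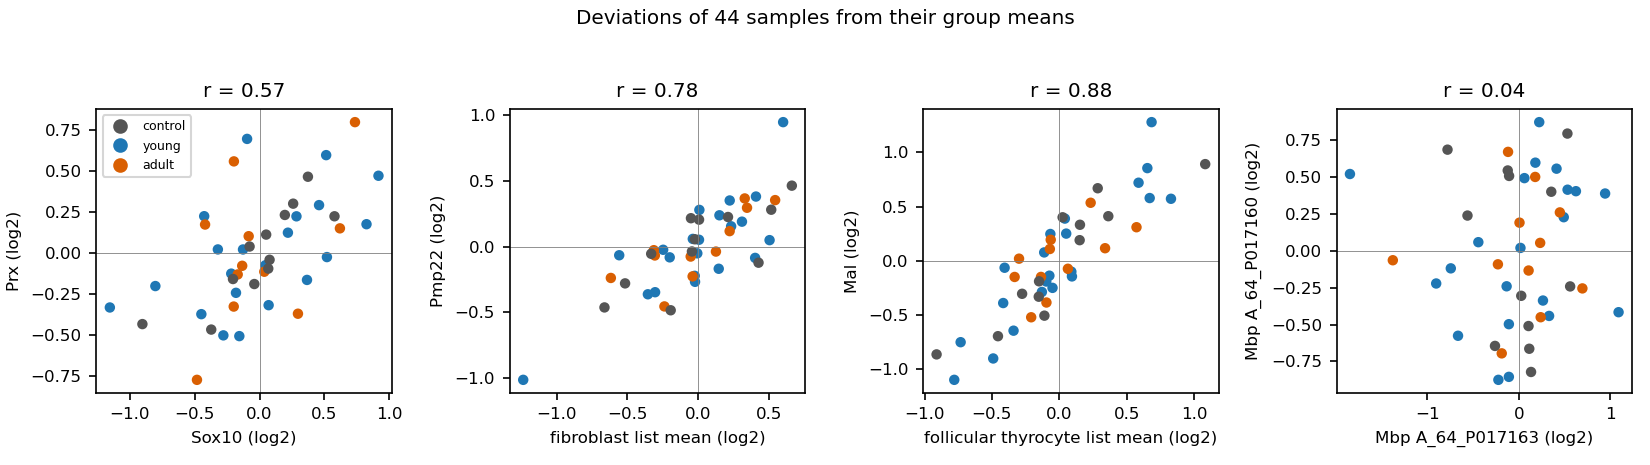
Level of one measure against another after removal of group means (log2 units, both axes), 44 samples, with controls in grey, young exposed rats in blue and adult exposed rats in orange. Pearson's r is 0.57 for Prx and Sox10, 0.78 for Pmp22 and the fibroblast list, 0.88 for Mal and the thyrocyte list, and 0.04 for the Mbp probes.

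Last, the genes whose levels followed each member most closely within groups were listed by Pearson's r over all tested probes with a symbol, as a description with no test. The 5 closest over 47 and over 44 samples were not always the same, so both are drawn on, and not every gene of each 5 is reported here. Among those closest to Prx over 47 samples were Cldn19 at 0.73, Tgfbr2 at 0.70, Rhoj at 0.70 and Aldh2 at 0.69. Over 44 samples Cldn19, at 0.75, was again among the 5, with Dctn2 at 0.79, Nosip at 0.77 and Kank3 at 0.75.

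Among those closest to Sox10 over 47 samples were Bcl6b at 0.89, Rasl12 at 0.87, Tdo2 at 0.87 and Egfl8 at 0.87. Over 44 samples they were Cmtm5, a myelin-associated transmembrane protein, at 0.91, Jam2 at 0.86, Fxyd7 at 0.84, Gpr37l1, a receptor of glia, at 0.82, and Lgi4, a signal that Schwann cells need for myelination, at 0.81. The 5 closest to Sox10 in one setting had no gene in common with those in the other.

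For Pmp22 the closest over 47 samples were Col6a2, a collagen of connective tissue, at 0.87, Lgi4 at 0.80, S100b at 0.80, Mmp2, a protease of the extracellular matrix, at 0.79, and Cd14 at 0.78. Over 44 samples they were Ehd2 at 0.89, Col6a2 at 0.88, Lgi4 at 0.88, Vim at 0.86 and Cav2 at 0.85. Col6a2 and Lgi4 were among the 5 in both settings. For Mal they were Panx2, Trip6, Slc29a3 and Cpvl, each at 0.95, and Hpcal1 at 0.94 over 47 samples, and Hpcal1 at 0.94, Slc29a3 at 0.94, Gjb1, a connexin of both myelin and epithelia, at 0.93, Dpysl2 at 0.93 and Limd2 at 0.92 over 44.

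Egr2 was followed over 47 samples by Rab32 at 0.73, Ptprc, the CD45 antigen of leukocytes, at 0.72, Il1b at 0.71, Calhm6 at 0.71 and Cxcl2 at 0.71. Over 44 samples the order was Ier2, an immediate early gene, at 0.67, Apol3l1 at 0.67, Oxct2b at 0.66, Il1b at 0.65 and Foxs1 at 0.64. The cytokine gene Il1b was the one in both. For Mag the closest over 47 samples were Wnt1 at 0.94, Sec14l5 at 0.93, Drd2 at 0.93, Rnf144b at 0.93 and Slc7a3l1 at 0.92. Over 44 samples they were Nr1i2 at 0.91, E2f7 at 0.87, Zdhhc22 at 0.87, Kcnj9 at 0.86 and Ly6g5c at 0.86, none of which was in the first list.

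The Mbp probes had no gene in common among their 5 closest in either setting. For A_64_P017163 these were Lamtor1 at 0.67, Impa2 at 0.65, Gpx3 at 0.64, Sema3b at 0.63 and Dynlt3 at 0.62 over 47 samples, and Fst at 0.75, Impa2 at 0.74, Eci1 at 0.72, Lamtor1 at 0.71 and Ndufs7 at 0.71 over 44. For A_64_P017160 they included Pgam1 at 0.90, Nudt5 at 0.86, Hsd17b12 at 0.85 and Asns at 0.84 over 47, and Pgam1 at 0.90, Nudt5 at 0.87 and Acsl5 at 0.85 over 44. These genes of the latter probe encode metabolic enzymes, among them Pgam1 of glycolysis and Asns of asparagine synthesis.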

How the data were processed

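Scanner files of 49 one-colour arrays were used. The authors deposited, per spot, a background-subtracted signal intensity from Agilent Feature Extraction, not scaled between arrays, with marks (other units) set as 0 or 1 by the authors' scanner software for outliers and signals well above background. A deposited table of the authors' fold changes was not used. Partek is named in the submitters' processing notes. No spot was saturated. Control and outlier spots were left out, the log2 of each array's 75th percentile was subtracted, and spots of 1 probe were averaged. Symbols came from RefSeq accessions. Probes well above background on at least 3 arrays were entered in limma 3.58.1 under R 4.3.3 (lmFit, eBayes, 1 mean per group, prior degrees of freedom 2.22) and adjusted by Benjamini-Hochberg over all tested probes. The design named 49 arrays, and near-identical pairs were averaged instead. Calls needed an adjusted p under 0.01 and a fold over 1.5, those between exposure effects or exposed groups only the former. By rule, named genes were the members by every probe, genes of the myelin and Schwann cell lists, the 5 genes with the highest r to each member within groups, and for other lists the brightest gene; Olig2 and the closest genes without the doubted arrays were named after their values were seen, and some genes the rule names are not reported here. Members and lists were chosen with earlier results of these data known. Each group's samples were separate rats, and their small number limits the precision. Scripts were tested on simulated data. Alternatives were quantile normalization, normexp with an offset of 50, other filters and scaling probes, averaged probes of a gene, the compared groups or the 19 arrays of young rats of 10 months alone, blocks for slide, scan date and replicate number, array weights, an adjusted p under 0.05, no removal of group means, and leaving out each sample. Removing the doubted arrays, and fitting all arrays separately, was chosen after seeing the data. Python 3.11.15 with scipy 1.17.1 was used for relations.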

Additional observations from a re-analysis of the deposited data

Results flagged for a closer look

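A sample stood far from the other 3 of its group in 2 of 72 sets of 4 samples, by Dixon's test, which chance alone does in about 1 in 20. Mag on probe A_64_P019613 was at -2.29 in replicate 4 of the 4-month controls, where the other 3 lay between -3.20 and -3.06. Sox10 was at 0.043 on the dim array labelled young, 50 kBq, 4 months, replicate 2, where the other 3 lay between -4.17 and -3.73.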

How the results depend on the processing

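Of 418 counts of members called or related under an alternative, 405 matched the reported count and 13 did not. With limma's array weights 1 member was called in young rats of 7 months (Pmp22, 0.98), 3 in adult rats of 7 months (Pmp22 0.84, Prx -0.81, Sox10 -0.82) and 2 in 7-month against 4-month controls (Pmp22 -1.30 and Mal, which reversed to 1.76). An adjusted p under 0.05 called 1 member in young rats of 4 months (Mag) and 1 in 13-month against 4-month controls (Pmp22). The last was also called with the 49 arrays fitted separately (1 member) and without the 3 doubted arrays (1 member). Leaving out 1 sample at a time gave 0 to 1 members in young rats of 4 months. The 1 related pair became 3 without the doubted arrays, 8 without removal of group means, and 2 with quantile normalization, where Prx and Sox10 reversed to an r of -0.40, or to 0.59 when the doubted arrays were also removed. The cause was not tested. With the replicate number as a block 0 members were called and no call changed. Same-numbered samples mostly did not vary together, with 10 of 30 pairs over 0.1 (r from -0.52 to 0.58), and the labels tie no numbers to a shared source. All 3 pairs were over 0.1 only in young rats of 7 months (0.33, 0.32 and 0.14), where the block also called 0 members and left every direction as it was. Of 2957 single values 2873 were counted as the same, and 2 reversed. For relations between members that passed in neither setting, this count did not ask for the same direction. Some of these changed sign, such as Mbp and Sox10, with an r of -0.02 over 47 samples and 0.41 without the doubted arrays.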
